A study of Mus musculus with 27 samples.

Results

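By group means of interferon gamma and neutrophil genes, the inflammatory signal among the Il10 knockout colons of this study was highest in 2 groups. These differ in both age and housing: knockouts kept in conventional housing at 9 weeks (9CC) and knockouts kept specific pathogen free at 12 weeks (12SPF). Each group had 3 samples, so 6 of the 27 arrays were compared, over 18193 genes each read by 1 probe set (that of highest mean signal over the series). The 9CC and 12SPF mice all carry the Il10-/- genotype, and the wild types used beside them, 12WT and 9WT (3 arrays each), were conventionally housed and 12 and 9 weeks old. The groups were chosen by their inflammatory signal, so the height of that signal above wild types is a description with no test. The code CC is not spelled out in the labels and was taken to mean conventional knockouts because no other code is left for them. The tissue was full-thickness colon, which holds epithelium, lamina propria, muscle and enteric nerves, and the replicates were those the authors picked by length and damage of the colon. Age and housing change together between 9CC and 12SPF and cannot be told apart, and no wild types in SPF housing were used here. Nothing in the labels tells if a sample pools animals, so p-values measure only the spread between these samples, which may be technical.

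Interleukin 10, the product of Il10, restrains macrophages and T cells, and mice without it can develop colitis driven by gut microbes. In such colitis, T helper 1 cells make interferon gamma, which acts on guanylate-binding proteins, immunity-related GTPases, antigen presentation genes and the chemokine Cxcl9. A second arm, driven by interleukin 1, interleukin 6 and CXC chemokines, draws neutrophils, whose abundant proteins S100a8 and S100a9 form calprotectin. Inflamed colonic epithelium also makes antimicrobial lectins such as Reg3g and commonly loses detoxifying and absorptive gene expression.

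The promoters of 4 interferon gamma targets that were high in both groups are shown, since they are known targets from a list that was among those with the highest group means in 9CC and 12SPF. Each sequence runs 5′ to 3′ from 250 bases before to 50 after the gene start (RefSeq, GRCm38.p6), and capitals mark matches to an interferon-stimulated response element (ISRE, searched as GAAANNGAAA and its reverse TTTCNNTTTC) or a gamma-activated site (GAS, searched as TTCNNNGAA, the same on both strands).
Irgm2, chr11:58214727-58215026, plus strand: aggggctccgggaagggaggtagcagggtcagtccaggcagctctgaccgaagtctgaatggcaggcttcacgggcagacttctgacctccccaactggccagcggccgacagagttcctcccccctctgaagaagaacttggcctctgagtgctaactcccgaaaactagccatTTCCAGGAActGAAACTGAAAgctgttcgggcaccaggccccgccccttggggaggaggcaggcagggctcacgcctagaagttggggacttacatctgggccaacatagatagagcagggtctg
Igtp, chr11:58199306-58199605, plus strand: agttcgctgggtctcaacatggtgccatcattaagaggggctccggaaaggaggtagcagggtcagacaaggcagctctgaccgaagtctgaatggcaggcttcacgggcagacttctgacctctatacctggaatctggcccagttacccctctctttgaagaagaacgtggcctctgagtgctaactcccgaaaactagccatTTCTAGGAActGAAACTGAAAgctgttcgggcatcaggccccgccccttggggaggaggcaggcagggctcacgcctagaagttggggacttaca
Gbp2, chr3:142620413-142620712, plus strand: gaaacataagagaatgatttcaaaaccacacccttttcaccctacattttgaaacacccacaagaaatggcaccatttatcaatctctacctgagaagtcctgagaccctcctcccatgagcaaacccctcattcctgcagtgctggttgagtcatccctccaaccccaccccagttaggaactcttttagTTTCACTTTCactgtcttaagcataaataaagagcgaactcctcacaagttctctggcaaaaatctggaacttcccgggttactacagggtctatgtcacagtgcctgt
Irf1, chr11:53769764-53770063, plus strand: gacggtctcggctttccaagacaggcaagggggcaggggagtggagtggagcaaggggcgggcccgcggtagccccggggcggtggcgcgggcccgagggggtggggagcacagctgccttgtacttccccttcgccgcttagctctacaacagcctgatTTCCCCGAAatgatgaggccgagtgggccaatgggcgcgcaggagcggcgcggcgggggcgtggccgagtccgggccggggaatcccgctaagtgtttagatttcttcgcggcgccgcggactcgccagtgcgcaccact
Irgm2 and Igtp, immunity-related GTPases, each held an ISRE match and a GAS match, starting 64 and 75 bases before the Irgm2 start and 34 and 45 bases before the Igtp start. Both lie on chromosome 11 and their sequences around these matches are nearly the same, so they are not separate examples. Gbp2, a guanylate-binding protein, held an ISRE match from 59 bases before its start, and Irf1, the transcription factor, held a GAS match from 90 bases before. Of the 25 measured genes of the interferon gamma list, 18 had a promoter sequence, 7 of these held an ISRE match and 7 a GAS match. Each promoter shown held a match, and none without a match is shown. Over all 32851 promoters of this length, 3.44% held an ISRE match and 8.3% a GAS match. A match describes letters and was not tested as a binding site.

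None of these 4 genes differed by the test. Irgm2 stood at 9.95, 9.77 and 9.52 on the log2 scale in the 9CC arrays, against 9.09, 9.84 and 9.89 in the 12SPF arrays, and lay between 6.98 and 7.28 in the wild types. Igtp stood at 11.17, 10.57 and 10.26 in 9CC arrays, against 10.20, 10.46 and 10.91 in 12SPF arrays. The differences of 9CC minus 12SPF were 0.14 ± 0.26 for Irgm2, 0.15 ± 0.37 for Igtp, 0.00 ± 0.39 for Gbp2 and -0.03 ± 0.17 for Irf1 (log2, SE, n = 3 arrays per group), and the arrays of the groups overlapped for all 4. Here and below, the SE rests on 1 spread per gene shared over all 27 arrays, not on the spread of the 6 compared arrays alone. The 95% confidence intervals ran from -0.41 to 0.68 for Irgm2, -0.62 to 0.92 for Igtp, -0.82 to 0.81 for Gbp2 and -0.37 to 0.31 for Irf1, all inside 2-fold either way.

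Array medians lay between 4.92 and 4.99 (log2, all 27 arrays), and Spearman correlations over genes among the 6 arrays lay between 0.969 and 0.993, lowest between 12SPF replicates 2 and 3. The arrays did not group by 9CC and 12SPF. 12SPF replicate 2 correlated at 0.985 to 0.991 with the 9CC arrays, against 0.977 and 0.969 with 12SPF replicates 1 and 3. The 3′ minus 5′ actin signal lay between 0.37 and 0.48 in 9CC and between 0.48 and 0.60 in 12SPF. In wild types it was 0.95 in 12WT replicate 2 and 0.51 to 0.65 in the other 5 arrays, and leaving that array out gave 0 limma calls in both tested comparisons that use it (1149 genes at an unadjusted p under 0.05 relative to wild types of each age, and 1189 for 12WT minus 9WT). Colon markers were strong, with the colonocyte gene Lypd8 at 13.92 to 14.10 in 9CC arrays and 13.85 to 14.10 in 12SPF arrays. Pancreatic digestive enzyme genes stood apart in 1 array: the mean of 9 acinar markers was 6.35 in 12SPF replicate 3 and 4.57 to 4.99 in the other 5 arrays, with the carboxypeptidase gene Cpb1 at 6.72 against 3.04 to 3.40 elsewhere. The single Il10 probe set read 5.66 to 6.35 in 9CC and 5.33 to 7.09 in 12SPF, above wild types, and since neither the allele nor the probe's place in the gene is given, it checks nothing about the knockout.

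In the interferon gamma and neutrophil product lists, the inflammatory signal was highest in these groups by group mean, though not in each of their arrays. The mean of the interferon gamma list was 7.44 in 9CC and 7.52 in 12SPF, and the next group, SPF knockouts at 9 weeks, stood at 6.64. For calprotectin and other neutrophil products the means were 5.62 in 9CC, 6.03 in 12SPF and 4.20 in the SPF knockouts at 9 weeks. Replicate 3 of the SPF knockouts at 9 weeks stood at 7.26 in the interferon gamma list, above 9CC replicate 3 (7.01) and 12SPF replicate 2 (6.93), and at 4.99 in neutrophil products, above 12SPF replicate 2 (4.35). Not every list set the 2 groups apart. Epithelial antimicrobial and oxidase genes averaged 8.87 in the SPF knockouts at 9 weeks, against 8.63 in 9CC and 8.67 in 12SPF. Type I interferon genes averaged 7.64 in those SPF knockouts, above 12SPF (7.52) and below 9CC (7.90). Against wild types of the same age, 568 genes (3.12%) were at least 2-fold higher in 9CC and 349 (1.92%) at least 2-fold lower. In 12SPF, 699 genes (3.84%) were at least 2-fold higher than in 12WT and 767 (4.22%) at least 2-fold lower. The higher genes shared by both numbered 466, which is 82% of those of 9CC and 66.7% of those of 12SPF. The lower genes shared numbered 270, which is 77.4% of those of 9CC and 35.2% of those of 12SPF, and 0 genes passed 2-fold in opposite directions. The correlation of the differences from wild types across genes, which are not independent replicates and were measured on arrays normalized together, was 0.86 (Pearson) and 0.77 (Spearman).

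**Figure D1:**
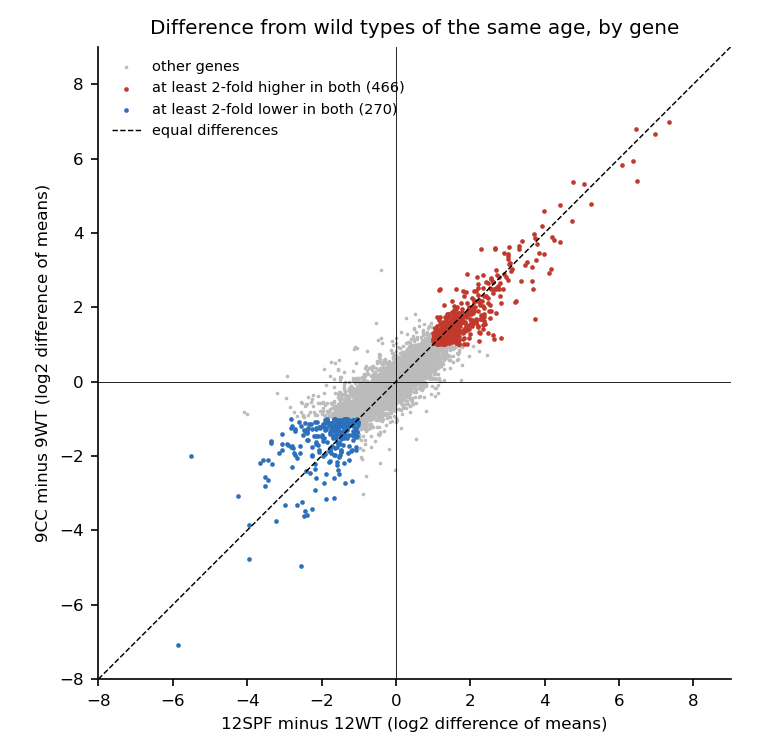
Each point is 1 of 18193 genes, with the log2 difference of 12SPF minus 12WT on the horizontal axis and of 9CC minus 9WT on the vertical axis. The 466 genes at least 2-fold higher in both are red, the 270 at least 2-fold lower in both are blue, and the dashed line marks equal differences. Red points lie along the line, and many blue points lie farther from 0 on the 12SPF axis.

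The direct comparison asked which genes distinguish 9CC from 12SPF. Of 18193 genes, 2 passed an adjusted p of 0.05 (0.011%): Pipox, a peroxisomal enzyme that oxidizes pipecolic acid and sarcosine, was higher in 9CC, and Arhgap10 was lower. At an unadjusted p under 0.05, 881 genes (4.84%) were higher and 609 (3.35%) lower in 9CC, and 116 genes differed by at least 2-fold between the group means (86 higher, 30 lower). All 3 arrays of 9CC lay above all 3 of 12SPF for 662 genes (3.64%) and below for 728 (4%).

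Pipox, on chromosome 11, read 5.73, 5.60 and 6.11 in 9CC arrays, against 4.76, 4.86 and 4.48 in 12SPF arrays. The groups did not overlap, and the difference was 1.11 ± 0.18 (log2, SE, n = 3 arrays per group, 95% confidence interval 0.73 to 1.49, limma adjusted p = 0.0403). Wild types lay between, at 4.96 to 5.54 in 12WT and 4.98 to 5.11 in 9WT. Among all 9 groups, 9CC had the highest Pipox mean (5.81) and 12SPF the lowest (4.70), with the other 7 between 4.92 and 5.29.

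Arhgap10, on chromosome 8, read 4.32, 4.28 and 4.41 in 9CC arrays, against 5.15, 4.92 and 4.88 in 12SPF arrays. It was lower in 9CC without overlap, by -0.65 ± 0.10 (95% confidence interval -0.87 to -0.44, limma adjusted p = 0.0403). Its mean in 12SPF (4.99) was the highest of the 9 groups, while 9CC (4.33) stood close to 12WT (4.32). The mean of 9WT, the wild types of the same age as 9CC, was 4.52. Both genes lie near the array median, where signal over background limits precision, and both calls depended on the arrays used: neither held when only the 6 arrays were fitted (adjusted p = 0.965 for each) or when any 9CC array was left out (adjusted p of 0.119 to 0.479 for Pipox and 0.126 to 0.268 for Arhgap10).

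**Figure D2:**
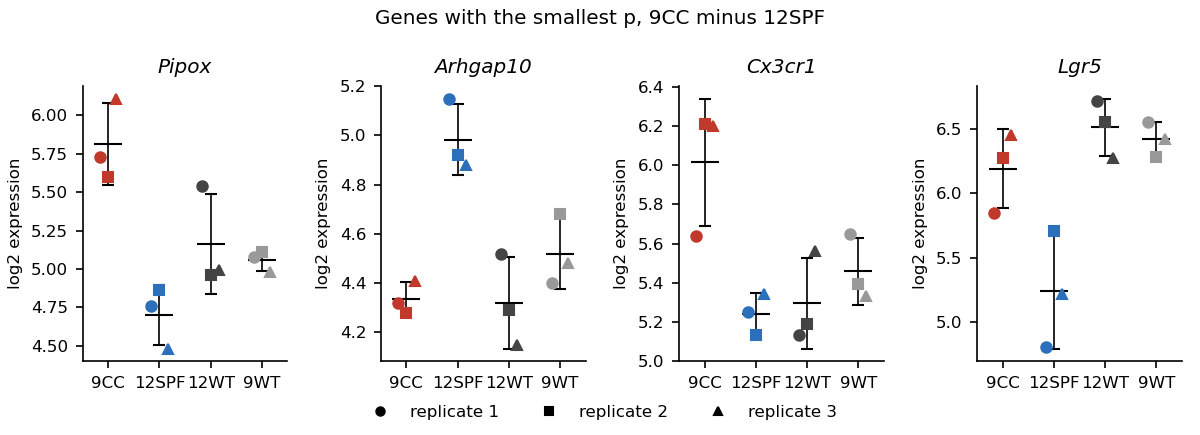
Log2 expression of the 4 genes with the smallest p in 9CC minus 12SPF, by array, in 9CC, 12SPF, 12WT and 9WT. Symbols mark replicates 1 to 3, and bars mark the mean ± SD of 3 arrays. The arrays of 9CC and 12SPF do not overlap for any of the 4 genes.

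The next 22 genes by p did not pass, and all 22 separated the groups without overlap. Cx3cr1, the fractalkine receptor of resident intestinal macrophages, read 5.64, 6.21 and 6.20 in 9CC arrays, against 5.25, 5.13 and 5.34 in 12SPF arrays, a difference of 0.78 ± 0.15 (adjusted p = 0.242). Lgr5, the R-spondin receptor that marks crypt base stem cells, read 5.85, 6.27 and 6.45 in 9CC arrays, against 4.81, 5.71 and 5.22 in 12SPF arrays (0.94 ± 0.20, adjusted p = 0.392). Its wild-type values lay above those of 12SPF, as the plot of these genes by array shows. Adamdec1, a metalloproteinase-like gene abundant in gut lamina propria, read 11.69, 12.09 and 12.03 in 9CC arrays, against 10.78, 11.36 and 10.40 in 12SPF arrays (1.09 ± 0.27, adjusted p = 0.501). Sct, which encodes the hormone secretin, differed by 1.14 ± 0.28, the leucine-rich transmembrane gene Flrt3 by 1.22 ± 0.28, the lipid transporter gene Abca12 by 1.20 ± 0.30, the creatine kinase gene Ckb by 0.58 ± 0.14 and the lymphocyte chemokine gene Xcl1 by 0.47 ± 0.12, each with 9CC higher. Another 6 with 9CC higher, Shroom4, Ttyh3, Tbx2, Jarid2, Aipl1 and 4921517D16Rik, differed by 0.39 to 0.58, and Myorg differed by 0.77. The 7 with 9CC lower were Grm8, Rhpn1, Platr22, Foxl2os, Spag17, Spag1 (-0.48 to -0.38) and D730005E14Rik (-0.98 ± 0.24). Of these 7, all but D730005E14Rik read 4.19 or less in all 6 arrays, at the low end of the scale.

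By group mean the inflammation markers stood above wild types of the same age in both groups, many with wide spread between arrays. None of the 18 measured of the 20 listed differed by the test. S100a8 read 10.55, 11.08 and 9.14 in 9CC arrays, against 12.06, 7.41 and 13.34 in 12SPF arrays. The 9CC values all fell inside the range of 12SPF, whose replicate 2 was lowest of the 6 and replicate 3 highest. The difference was -0.68 ± 1.12 (95% confidence interval -3.00 to 1.64, adjusted p = 0.888), so differences of several fold either way were not detectable. S100a9 (10.77, 11.11 and 8.50 in 9CC, 11.97, 6.30 and 13.01 in 12SPF), the iron-binding lipocalin Lcn2 (8.29, 8.17 and 7.60 in 9CC, 9.80, 5.29 and 10.10 in 12SPF) and the neutrophil chemokine Cxcl5 (9.67, 9.39 and 7.69 in 9CC, 10.10, 6.86 and 11.09 in 12SPF) kept that order of the 12SPF arrays. Ifng, which encodes interferon gamma, had the same order, and read 6.82, 4.68 and 3.27 in 9CC arrays, against 6.75, 3.86 and 7.41 in 12SPF arrays (-1.08 ± 0.69, adjusted p = 0.678). Il1b differed by -0.55 ± 0.72, Il17a by -0.59 ± 0.35, Tnf by 0.09 ± 0.25 and Nos2, the inducible nitric oxide synthase, by -0.20 ± 0.45.

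Errors were smaller for interferon-driven and antimicrobial markers than for S100a8 and S100a9. Cxcl9, a T cell chemokine, read 11.62, 10.63 and 9.91 in 9CC arrays, against 11.05, 9.24 and 11.92 in 12SPF arrays (-0.02 ± 0.69). Iigp1, an immunity-related GTPase, lay at 11.49 to 12.24 in 9CC and 11.51 to 12.08 in 12SPF (0.08 ± 0.48). Cd74, the MHC class II invariant chain, lay at 12.83 to 12.99 in 9CC and 12.66 to 12.83 in 12SPF (0.19 ± 0.37), and wild-type means were 9.39 in 12WT and 10.23 in 9WT. Reg3g, the antimicrobial lectin, read 13.58, 13.13 and 13.32 in 9CC arrays, against 13.59, 13.39 and 12.27 in 12SPF arrays (0.26 ± 0.66), close to the top of the scale in both. Its relative Reg3b differed by 0.10 ± 0.36, and the tryptophan-degrading enzyme gene Ido1 by -0.06 ± 0.56. Mmp10, Saa3 and Lrg1, a matrix protease, an acute phase protein and a glycoprotein of inflamed tissue, differed by -0.70 ± 0.59, -0.16 ± 0.58 and -1.10 ± 0.66. For Lrg1 the 95% confidence interval ran from -2.47 to 0.27.

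**Figure D3:**
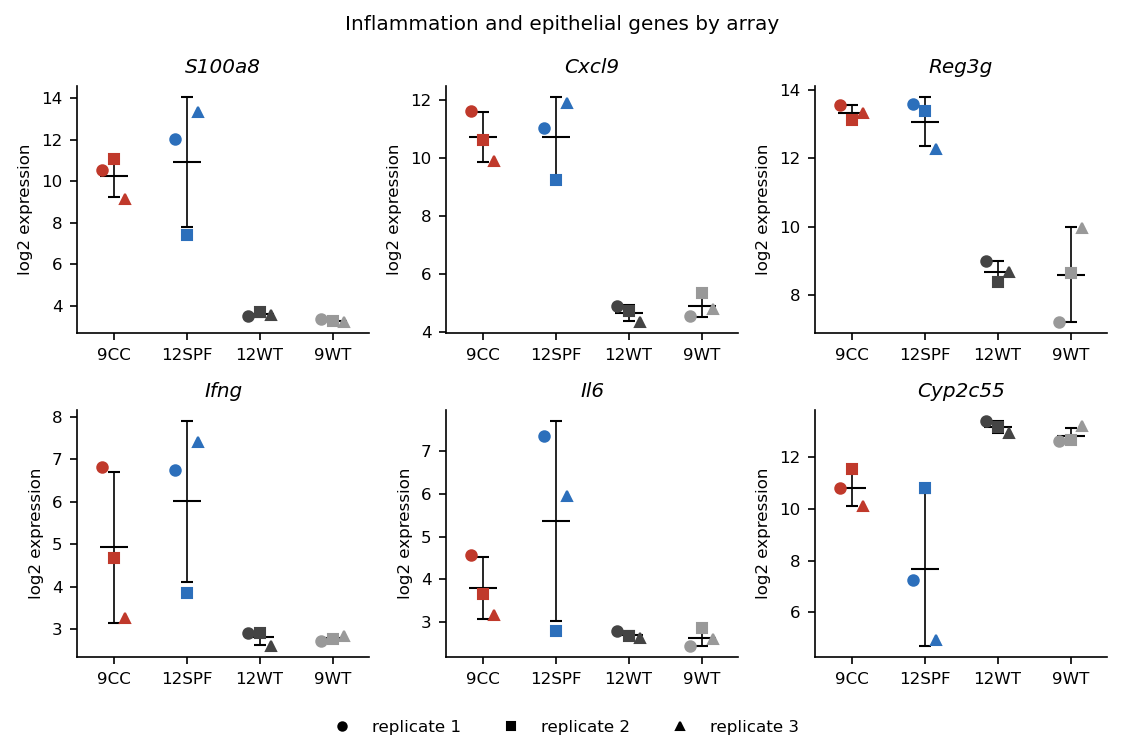
Log2 expression of 5 inflammation genes and of the detoxifying enzyme gene Cyp2c55 by array, in 9CC, 12SPF, 12WT and 9WT, with the mean ± SD of 3 arrays. For S100a8, Ifng and Il6, 12SPF replicate 2 lies below the other 12SPF arrays, and for Cyp2c55 it lies above them.

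Spread between 12SPF arrays exceeded that between 9CC arrays in the genes that both groups moved. Over the 466 genes at least 2-fold higher in both, the median SD was 0.41 in 9CC and 0.71 in 12SPF, and over the 270 lower in both it was 0.36 in 9CC and 0.92 in 12SPF. Over all genes it was 0.14 in 9CC and 0.18 in 12SPF. All 3 arrays of 9CC fell inside the 12SPF range for 275 of the 466 (59%), for 176 of the 270 (65.2%) and for 31% of all genes. The lowest of the 6 arrays was 12SPF replicate 2 for 300 of the 466 and 9CC replicate 3 for 129, and the highest was 12SPF replicate 3 for 293. Over all 18193 genes these counts were 3587, 3805 and 3827. Among the 270 genes the highest was 12SPF replicate 2 for 194 and 9CC replicate 3 for 58, against 3913 and 3313 over all 18193 genes. The median difference of 9CC minus 12SPF was -0.14 over the 466, 0.30 over the 270 and -0.01 over all genes. The 95% confidence interval of the difference lay within 2-fold either way for 95% of all genes, 67% of the 466 and 37% of the 270, so 2-fold differences among the genes lower in both were often not detectable at this number of arrays.

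Gene lists of the 2 arms of inflammation were described by counts and medians beside those of all genes. In the interferon gamma list 0 of 25 genes were called and 0 passed an unadjusted p under 0.05, against 4.84% of all genes higher and 3.35% lower, and the median difference was -0.02. Its mean was 7.87, 7.43 and 7.01 in 9CC arrays, against 7.53, 6.93 and 8.08 in 12SPF arrays, which overlap. MHC class I genes had a median of 0.13, with all 13 above 0, and 1 passed an unadjusted p under 0.05. For 3 of the 13, all 3 arrays of 9CC lay above all 3 of 12SPF, against 3.64% of all genes. B2m, the MHC class I light chain, lay at 13.15 to 13.22 in 9CC and 12.95 to 13.01 in 12SPF (0.20 ± 0.13, adjusted p = 0.676). MHC class II genes had a median of 0.22, and 2 of 9 were separated in that way. Of 21 type I interferon genes, 20 were above 0 (median 0.32) and 3, Oas3, Ifit2 and Ifit1, all antiviral effectors, passed an unadjusted p with 9CC higher. All 3 arrays of 9CC lay above all 3 of 12SPF for 6 of the 21 and below for 0, against 3.64% and 4% of all genes. Ifit1 read 8.70, 8.60 and 8.71 in 9CC arrays, against 6.49, 8.53 and 8.08 in 12SPF arrays (0.97 ± 0.45, adjusted p = 0.598). Ifit2 read 9.76, 9.11 and 8.65 in 9CC arrays, against 7.83, 8.42 and 8.83 in 12SPF arrays (0.81 ± 0.37).

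By list means, the neutrophil and interleukin 6 arm leaned towards 12SPF, through replicates 1 and 3. Of 20 neutrophil-drawing chemokine and IL-1/IL-6 cytokine genes, 0 were called, 7 were lower in 9CC at an unadjusted p under 0.05 (3.35% of all genes were) and the median was -0.62. The list mean was 6.07, 6.0 and 5.24 in 9CC arrays, against 6.99, 5.07 and 7.21 in 12SPF arrays. Il11, a cytokine of the IL-6 family, read 6.02, 5.33 and 4.61 in 9CC arrays, against 7.19, 5.41 and 6.96 in 12SPF arrays (-1.20 ± 0.31, adjusted p = 0.518). Il33, an alarmin, read 7.18, 6.33 and 6.37 in 9CC arrays, against 8.26, 6.05 and 9.49 in 12SPF arrays (-1.31 ± 0.57). Ccl20, which draws Ccr6-bearing lymphocytes, read 4.98, 6.02 and 4.83 in 9CC arrays, against 5.65, 5.58 and 7.72 in 12SPF arrays (-1.04 ± 0.39). Only 12SPF replicate 3 stood above all 9CC arrays, and the 9CC mean of Ccl20 was also below that of 9WT, by -0.79. Of 19 genes of neutrophil products, 18 were below 0 (median -0.31) and 3 had an unadjusted p under 0.05: Ngp, a neutrophil granule protein (-1.47 ± 0.39), Mmp8, the neutrophil collagenase (-1.11 ± 0.33), and Camp, cathelicidin (-0.35 ± 0.15). For 0 of these 19 and 1 of the 20 chemokine and cytokine genes, all 3 arrays of 9CC lay below all 3 of 12SPF. Over all genes that share was 4%. Ngp read 4.17, 3.92 and 3.99 in 9CC arrays, against 5.93, 3.87 and 6.67 in 12SPF arrays, so 9CC and 12SPF replicate 2 stood together. Camp read 4.17, 4.50 and 4.66 in 9CC arrays, against 4.67, 4.60 and 5.13 in 12SPF arrays, highest in replicate 3. In bulk tissue, fewer cells of a type and less RNA per cell cannot be told apart. Genes outside the naming rule that stand here and in the paragraphs on epithelium and muscle were chosen after their values were seen.

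Epithelial metabolism leaned the other way. Of 31 xenobiotic metabolism genes, 14 were higher in 9CC at an unadjusted p under 0.05 (4.84% of all genes were) and 0 lower, with a median of 0.67. All 3 arrays of 9CC lay above all 3 of 12SPF for 1 of the 31, against 3.64% of all genes. Cyp2c55, a colonic cytochrome P450, read 10.81, 11.56 and 10.12 in 9CC arrays, against 7.25, 10.82 and 4.92 in 12SPF arrays (3.17 ± 0.96, adjusted p = 0.529). Its relative Cyp2c65 read 9.67, 10.38 and 10.22 in 9CC arrays, against 8.64, 9.71 and 4.96 in 12SPF arrays (2.32 ± 0.78). Against wild types of the same age Cyp2c55 differed by -2.0 in 9CC and -5.51 in 12SPF. Cyp2c65 differed by -0.30 in 9CC, where its arrays overlapped those of 9WT, and by -3.20 in 12SPF. Of 21 fatty acid oxidation and ketogenesis genes, all 21 were above 0 and 11 had an unadjusted p under 0.05 (median 0.37). Ppara, a nuclear receptor of fatty acid oxidation, read 6.84, 7.43 and 7.93 in 9CC arrays, against 6.10, 7.01 and 4.48 in 12SPF arrays (1.54 ± 0.50, adjusted p = 0.529). The short-chain acyl-CoA dehydrogenase gene Acads differed by 0.58 ± 0.18.

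Markers of epithelial cell types followed. Of 26 colonocyte markers, 10 were higher in 9CC at an unadjusted p under 0.05 (4.84% of all genes were), with a median of 0.34. Among them were the carbonic anhydrase gene Car1 (13.37, 13.79 and 13.44 in 9CC arrays, against 13.02, 13.40 and 11.18 in 12SPF arrays), the peptide hormone gene Guca2a (1.24 ± 0.45) and the alkaline phosphatase gene Alpi (1.87 ± 0.64). Goblet cell markers were above 0 in 15 of 15, and 5 had an unadjusted p under 0.05 (median 0.36). Muc2, the secreted mucin, read 13.69, 13.86 and 14.0 in 9CC arrays, against 13.63, 13.78 and 12.50 in 12SPF arrays (0.55 ± 0.21, adjusted p = 0.536). For Car1 and Muc2 the low array was 12SPF replicate 3. Of 18 enteroendocrine and tuft cell markers, 4 had 9CC higher at that threshold, among them Sst, somatostatin (1.07 ± 0.38), Nts, neurotensin (1.54 ± 0.56), and Tph1, which makes serotonin (0.99 ± 0.45). The crypt stem and Wnt list had a median of 0.07, and 4 of its 16 genes had 9CC higher at that threshold, including Lgr5 and Smoc2 (0.43 ± 0.16). Beside these groups, the neutrophil product list was highest in the same 2 arrays, 12SPF replicates 1 and 3, in which the epithelial lists were lowest, and its part in the result was not tested.

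Smooth muscle genes showed the highest share of members past the unadjusted threshold of the 42 lists. Of 16 markers, 15 had an unadjusted p under 0.05 with 9CC higher (4.84% of all genes did) and 0 were called, with a median of 0.66. All 3 arrays of 9CC lay above all 3 of 12SPF for 0 of the 16, against 3.64% of all genes. The list mean was 10.55, 10.54 and 10.49 in 9CC arrays, against 9.65, 10.61 and 9.34 in 12SPF arrays, so 12SPF replicate 2 lay above all of 9CC. Myh11, smooth muscle myosin heavy chain, read 11.24, 11.41 and 11.51 in 9CC arrays, against 10.45, 11.36 and 9.76 in 12SPF arrays (0.86 ± 0.24, adjusted p = 0.518). Actg2, enteric actin, read 12.22, 12.15 and 11.66 in 9CC arrays, against 11.13, 11.90 and 10.12 in 12SPF arrays (0.96 ± 0.28). Mylk, the myosin light chain kinase (0.80 ± 0.23), Cnn1, calponin (0.76 ± 0.23), and Des, desmin (0.55 ± 0.20), had the same order of 12SPF arrays. Wild-type list means, 11.06 in 12WT and 11.17 in 9WT, were above both 9CC (10.52) and 12SPF (9.87).

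**Figure D4:**
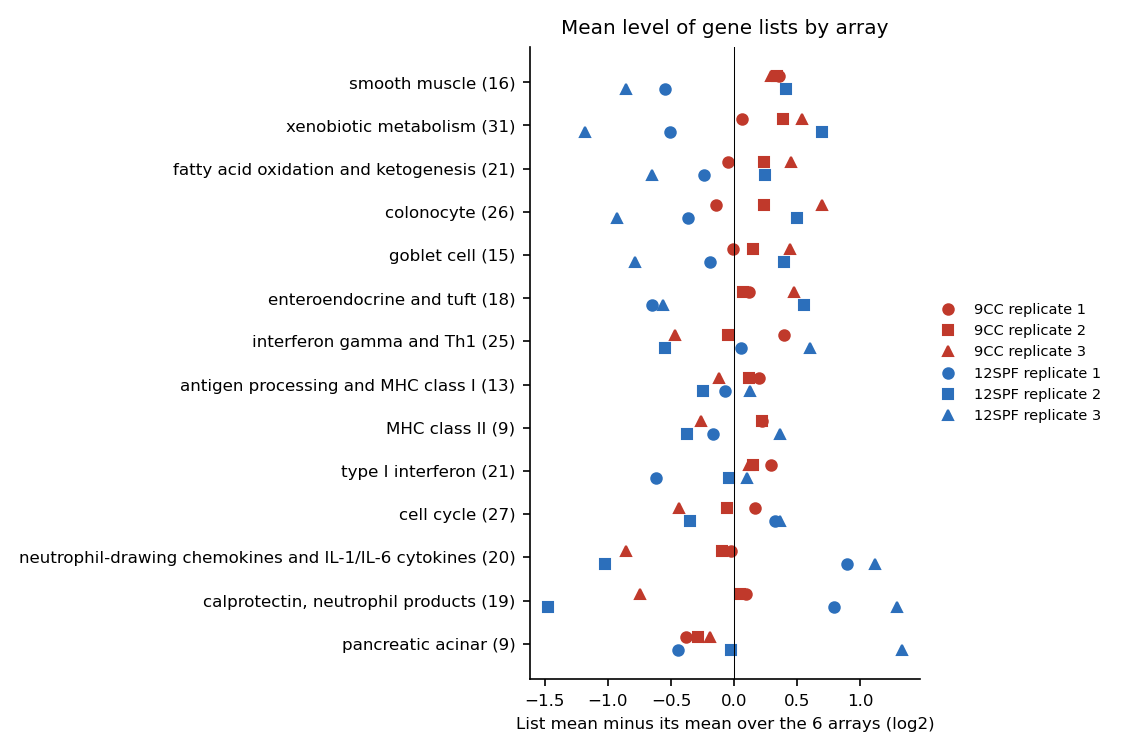
Mean level of 14 gene lists (number of measured genes in parentheses) in the 6 arrays, each minus its mean over the 6 (log2). 9CC arrays are red and 12SPF arrays blue, and symbols mark replicates. 12SPF replicates 1 and 3 lie below every 9CC array in smooth muscle and the xenobiotic list and above them in both neutrophil lists, while 12SPF replicate 2 lies beyond the 9CC arrays on the other side.

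Immune and stromal cell types and further pathways gave mixed values. T cell markers had a median of 0.05, cytotoxic lymphocyte markers 0.15, plasma cell markers 0.14, macrophage and monocyte markers 0.01 and fibroblast markers 0.05. Of all genes, 4.84% were higher in 9CC at an unadjusted p under 0.05 and 3.35% lower. Of 24 macrophage markers, 2 met that threshold, close to the share of all genes. These were Cx3cr1 and Ms4a7 (0.47 ± 0.16), both higher in 9CC. Among 28 matrix genes 8 had 9CC higher at that threshold, among them the collagen VI genes Col6a1 (0.60 ± 0.17) and Col6a3 (0.55 ± 0.18), and Col12a1 (0.54 ± 0.15). Col6a1 read 8.71, 9.29 and 9.16 in 9CC arrays, against 8.44, 8.71 and 8.20 in 12SPF arrays, with 9CC replicate 1 equal to 12SPF replicate 2 at this rounding. The B cell list had a median of -0.41, with means of 5.69, 5.90 and 5.05 in 9CC arrays and 5.82, 5.05 and 6.73 in 12SPF arrays, highest in replicate 3. Of 27 cell cycle genes, 25 were below 0 (median -0.21) and 3 met the threshold, Mcm2, Bub1 and Ccne2 (-0.54 to -0.52). Of 18 circadian clock genes 2 met it with 9CC higher, of which Dbp, a clock output factor, read 5.0, 5.76 and 7.05 in 9CC arrays, against 3.83, 4.59 and 4.34 in 12SPF arrays (1.68 ± 0.67, adjusted p = 0.536). Clock itself was lower in 9CC at that threshold, at 8.69 to 8.76 in 9CC arrays and 8.90 to 9.12 in 12SPF arrays (-0.27 ± 0.13, adjusted p = 0.606). Near Il10 and among knockout-linked genes, 3 of 26 met it (2 higher, 1 lower), close to the shares of all genes. Of these, Wdfy1 read 8.02, 8.25 and 8.20 in 9CC arrays, against 7.84, 7.12 and 6.99 in 12SPF arrays (0.84 ± 0.26), above both wild types (means of 5.81 in 12WT and 5.98 in 9WT).

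The count of genes called rested on 1 array. Without 12SPF replicate 2, 1129 genes passed, 751 higher in 9CC (4.13%) and 378 lower (2.08%). Leaving out any of the other 5 arrays gave 0 calls, except 1 without 9CC replicate 1, which was Cx3cr1. With array weights, which gave 12SPF replicate 2 the lowest weight of all 27 arrays (0.193), 998 genes passed, of which 701 were among the 1129. For 667 of the 751 higher genes, 12SPF replicate 2 reached the range of the 9CC arrays, and for 352 it lay above all of them. For 353 of the 378 lower genes it reached that range, and for 201 it lay below all 9CC arrays. The comparison without it sets 9CC against 2 arrays and assumes that these vary like the other groups. That array was singled out because leaving it out changed the count most. The p-values and list counts obtained without it are therefore no separate evidence of a difference between the groups.

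**Figure D5:**
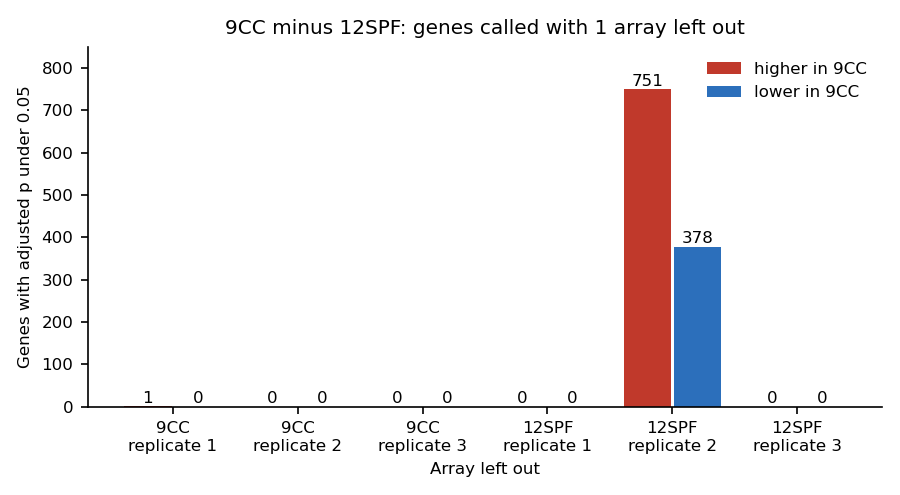
Number of genes with an adjusted p under 0.05 in 9CC minus 12SPF with 1 of the 6 arrays left out, higher in 9CC in red and lower in blue. Leaving out 12SPF replicate 2 gives 751 and 378 genes, and the other 5 arrays give at most 1.

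The 8 genes called with the most negative differences in that comparison are given as a description. Chil3, a chitinase-like lectin of activated macrophages and neutrophils, read 4.64, 3.72 and 5.05 in 9CC arrays, against 9.29, 2.84 and 7.88 in 12SPF arrays. Without 12SPF replicate 2 it differed by -4.12 ± 0.37 (adjusted p = 9.88e-07), and with it by -2.20 ± 0.88 (adjusted p = 0.536). Il6 read 4.58, 3.65 and 3.17 in 9CC arrays, against 7.34, 2.79 and 5.94 in 12SPF arrays, a difference of -2.84 ± 0.34 without replicate 2. Cers3, a ceramide synthase, differed by -2.91 ± 0.26, and Wfdc21, Ifitm6, Hp (haptoglobin) and the neutrophil chemokines Cxcl2 and Cxcl3 by -2.70 to -2.35. Against 2.08% of all genes called lower, 14 of 20 of the neutrophil-drawing list were lower, of neutrophil products 10 of 19, and of the interferon gamma list 2 of 25.

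The 8 genes called with the most positive differences are described likewise. Cyp2c55 differed by 4.75 ± 0.77 (adjusted p = 0.00106) without 12SPF replicate 2 and Cyp2c65 by 3.29 ± 0.74. Aqp8, a colonocyte water channel, read 9.12, 9.26 and 9.28 in 9CC arrays, against 5.47, 10.83 and 6.92 in 12SPF arrays, a difference of 3.02 ± 0.29 without replicate 2 and 1.48 ± 0.70 with it. Gsdmc2, an epithelial gasdermin, differed by 3.23 ± 0.34, the sulfotransferase gene Sult1a1 by 2.84 ± 0.53, the glucuronosyltransferase gene Ugt2b5 by 2.80 ± 0.74, the urea cycle gene Otc by 2.72 ± 0.38 and the ceramidase gene Acer1 by 2.61 ± 0.24. Against 4.13% of all genes called higher, 15 of 16 of the smooth muscle list were higher, of xenobiotic metabolism 17 of 31, of fatty acid oxidation 9 of 21, of colonocyte markers 8 of 26, of enteroendocrine and tuft markers 7 of 18 and of goblet markers 6 of 15. Of the 466 genes higher in both groups than in wild types 65 were lower in 9CC, and of the 270 lower in both 101 were higher in 9CC.

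To set age aside as far as the design allows, each group was taken relative to wild types of its age. For (9CC minus 9WT) minus (12SPF minus 12WT), 0 of 18193 genes passed (0%, limma, smallest adjusted p = 0.135), 1549 had an unadjusted p under 0.05, and 319 passed without 12SPF replicate 2. Arhgap10 differed by -0.85 ± 0.15 (adjusted p = 0.135) and Pipox by 1.22 ± 0.26 (adjusted p = 0.296). These differences use 4 groups, so their errors are larger than those of the direct comparison. List medians were -0.65 for neutrophil-drawing chemokines and IL-1/IL-6 cytokines, -0.32 for neutrophil products, 0.66 for xenobiotic metabolism and 0.54 for smooth muscle, each with the sign of the direct comparison. Other lists turned sign, among them MHC class II (-0.12, against 0.22 in the direct comparison), plasma cell markers (-0.18, against 0.14), immediate early genes (-0.21, against 0.04), cell cycle genes (0.04, against -0.21) and tight junction genes (-0.07, against 0.13).

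Between wild types, 12WT minus 9WT gave 0 calls (0%, limma, smallest adjusted p = 0.0641), with 2311 genes at an unadjusted p under 0.05. That count rested on single arrays, since 251 genes passed without 12WT replicate 1 and 155 without 12WT replicate 3. Pipox differed by 0.11 ± 0.18 and Arhgap10 by -0.20 ± 0.10 between the wild-type ages, and the median was 0.01 for neutrophil products and 0.00 for neutrophil-drawing chemokines and IL-1/IL-6 cytokines. Abca12 differed by 0.82 ± 0.30 between 12WT and 9WT (adjusted p = 0.259), while 12SPF lay below 9CC.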

How the data were processed

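Total RNA from full-thickness mouse colon was hybridized to 1 Affymetrix array per sample, whose probe sets are of a mouse design although the series text names a rat one. The authors deposited log2 expression values, normalized over all 27 arrays with affyPLM per the series' design text, and these were used as deposited. How probes were summarised, and with which version, is not given in the sources used here. Array data have no count-like depth, so the number of arrays limits precision.

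Of 45101 probe sets, 64 controls were left out. The 34945 with 1 gene symbol gave 18193 genes, and the 932 with several symbols and 9160 with none entered no gene test. limma (3.58.1, R 4.3.3) fitted 9 group means over 27 arrays (18 residual degrees of freedom, 4.18 from the empirical Bayes prior). The 3 tested contrasts were 9CC minus 12SPF, the same relative to wild types of each age, and 12WT minus 9WT, two-sided, called at a Benjamini-Hochberg adjusted p of 0.05 over all genes. Intervals are 95%. The model shares 1 spread per gene over all groups, so intervals and calls assume that 12SPF varies like the other groups. Among genes at least 2-fold higher or lower in both groups, 12SPF spread more than 9CC (median SD 0.71 against 0.41, and 0.92 against 0.36). A printed SE can therefore be smaller or larger than the 6 compared arrays alone would give. Fitted to only the groups compared, 536 genes had an unadjusted p under 0.05, against 1490 in the main limma fit.

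The groups and the 42 lists (21 pathway, 21 cell type, 730 of 796 entries measured) were chosen with earlier results of these data known. Genes named were those called, the next by p up to 24, 20 inflammation markers, Il10, and per list up to 4 called members, or the 2 with the highest mean. Printed here are some of these, with others chosen after their values were seen. Promoters were matched by symbol to RefSeq. Alternatives were a replicate block, array weights, an intensity trend, a robust prior, an interferon score as covariate, renewed quantile normalization, median centring, leaving out the lowest 40% of genes, averaging the probe sets of a gene, all non-control probe sets, a fit to only the groups compared, calls restricted to an absolute log2 difference of at least 1, and each array left out. The fit was tested on simulated data. Tables used pandas 2.3.3 and NumPy 2.4.6 under Python 3.11.15, and plots used matplotlib 3.10.9.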

Additional observations from a re-analysis of the deposited data

Results flagged for a closer look

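For 3 genes every 9CC array lay on 1 side of every 9WT array and every 12SPF array on the other side of every 12WT array, and for none did limma's test of the difference pass. Pipox was higher than 9WT in 9CC (0.75) and lower than 12WT in 12SPF (-0.46), a difference of 1.22 (adjusted p = 0.296). Abca12, the lipid transporter gene, was higher in 9CC (0.89) and lower in 12SPF (-1.14), a difference of 2.02 (adjusted p = 0.296), with wild types at 6.28, 5.63 and 5.28 in 12WT and 4.62, 5.03 and 5.08 in 9WT. For 4921517D16Rik, read at 3.45 or less in these 12 arrays, the difference was 0.34 (0.17 in 9CC and -0.17 in 12SPF, adjusted p = 0.563).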

How the results depend on the processing

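The 2 calls of 9CC minus 12SPF, Pipox and Arhgap10, changed with most settings. With a robust prior, an interferon score covariate or the mean of probe sets the count was again 2. It was 1 with arrays centred on their median, with quantile normalization again and with a minimum absolute log2 difference of 1, which Arhgap10 (-0.65) could not meet. It was 0 with an intensity trend, with only the groups compared, with the lowest 40% of genes left out and with all non-control probe sets, at unadjusted counts of 1492, 536, 1018 and 3370. Leaving out the lowest 40% drops Pipox and Arhgap10 themselves from the test, so their calls could not be kept there. Array weights gave 998 calls (679 higher, 319 lower). Leaving out single arrays gave 0 to 1129, the highest without 12SPF replicate 2. Pipox was called in 5 of 15 settings, at 0.96 to 1.22, and Arhgap10 in 7 of 15, at -0.78 to -0.57. Relative to wild types of each age the 0 calls became 31 with array weights and 0 to 319 with an array left out (319 without 12SPF replicate 2, 6 without 12WT replicate 1, 1 without 12WT replicate 3). For 12WT minus 9WT the 0 calls became 8 with array weights, 9 with the lowest genes left out, 1 with the mean of probe sets, 8 with quantile normalization again and 0 to 251 with an array left out. The cause of these changes was not tested. With a replicate block, 9CC minus 12SPF gave 0 calls (1486 at an unadjusted p under 0.05), and the other 2 comparisons 0 each. Same-numbered arrays were no more alike than others: deviations of same-numbered arrays of 9CC and 12SPF correlated at -0.501 to 0.291, and those of other pairs at -0.518 to 0.547. With so few pairs, a weak pairing by replicate number could not be seen this way. Over 117 named genes and 16 settings, 1745 of 1848 values counted as unchanged. A called gene then stayed called with its sign. A gene not called stayed so and shifted by less than the pooled SD of the 2 groups, whatever its sign. Tnf, for example, went from 0.09 to -0.19 without 12SPF replicate 2. Another 72 gained a call (38 without 12SPF replicate 2, 33 with array weights), 18 lost one and 13 shifted by more without a call. Calls gained in the opposite direction numbered 0. Without 12SPF replicate 2, S100a8 and S100a9 still did not pass (adjusted p = 0.125 and 0.122).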
